A study of Mus musculus with 6 samples.

Results

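Transcripts of 8 C-type lectin receptor genes of myeloid cells were read in mouse microglia that had shared a culture with neutrophils of either Cd177 genotype. The genes were taken by symbol from the 55335 gene identifiers of the deposited table: Clec4e, Clec4d, Clec4n, Clec7a, Clec4a2, Clec5a, Clec12a and Clec2d. All 8 were found, each under a single Ensembl identifier, and 5 of them passed the filter, a mean over the 6 libraries of 1 FPKM or more (FPKM, fragments mapped to a gene, scaled to its transcript length and to library depth). Clec4a2, Clec12a and Clec2d stood under it.

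C-type lectin receptors are surface proteins of macrophages, microglia, dendritic cells and neutrophils that bind sugars and lipids of microbes and products of dead cells. Some activating receptors signal through a tyrosine-based motif in their own tail, as Clec7a (Dectin-1) does. Others signal through an immunoreceptor tyrosine-based activation motif (ITAM) in a partner adaptor. This is FcR gamma (Fcer1g) for Clec4e (Mincle), Clec4d (MCL) and Clec4n (Dectin-2), and DAP12 (Tyrobp) for Clec5a (MDL-1). Either motif recruits the kinase Syk, which acts through the adaptor CARD9 and the BCL10 and MALT1 proteins on NF-kB. Clec4a2 (DCIR) and Clec12a (MICL) instead carry an inhibitory motif (ITIM) that recruits phosphatases, and Clec2d (Clr-b) is a ligand of an inhibitory natural killer cell receptor. Microglia and infiltrating myeloid cells carry several of these receptors in the injured nervous system, and neutrophils express several of them too.

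The microglia were primary cells of genotype WT from the brain of C57BL/6 pups, detached by shaking from mixed cultures on day 14, and all 6 libraries share this origin. They were kept for 24 h with neutrophils that had been pulled by magnetic sorting from spinal cord lesions on day 3 after injury, from mice with Cd177 (WT neutrophils, 3 libraries) or with the gene knocked out (KO neutrophils, 3 libraries). The methods of the study describe its animals as male and those operated on as adult. Microglia were recovered by flow sorting as cells negative for the neutrophil surface protein Ly6G, and no culture without neutrophils was analysed here. The labels do not say whether the 3 libraries of a group came from separate cultures, so the p-values measure the spread between these libraries, which may be technical. The smallest steps between low values put the depth at 15600000 to 19200000 fragments a library.

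All 8 genes lie on chromosome 6 of the mouse build GRCm38 in the GENCODE M21 annotation, 7 of them in 2 groups of neighbours. Clec4a2, Clec4n, Clec4d and Clec4e stand within 183 kb at chr6:123106428-123289870, among 5 coding genes. Clec2d, Clec12a and Clec7a stand within 292 kb at chr6:129180615-129472779, among 9 genes. Clec5a lies apart from both, at chr6:40574894-40585821. The fifth gene of the first group, Clec4b2, was listed at 0 in every library, and of the second group Clec7a alone passed the filter. The annotation types Clec7a as a polymorphic pseudogene with 2 coding transcripts.

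The 250 bases before the RefSeq start are printed 5′ to 3′ on the coding strand for the 2 neighbours Clec4e (chr6:123289872-123290121, minus strand) and Clec4d (chr6:123261857-123262106, plus strand), for Clec7a (chr6:129472780-129473029, minus strand, the first of its 2 starts) and for Clec12a (chr6:129349994-129350243, plus strand), all from RefSeq on GRCm38.p6. These members had the largest absolute log2 changes in the fit with no filter on low values, described below. By the ratio of mean FPKM, Clec2d (2.28-fold) and Clec4a2 (1.91-fold), not printed, differed more than Clec4d and Clec4e. Capitals mark matches on either strand to 6 short motifs, given below, of factors that act in myeloid cells.
Clec4e: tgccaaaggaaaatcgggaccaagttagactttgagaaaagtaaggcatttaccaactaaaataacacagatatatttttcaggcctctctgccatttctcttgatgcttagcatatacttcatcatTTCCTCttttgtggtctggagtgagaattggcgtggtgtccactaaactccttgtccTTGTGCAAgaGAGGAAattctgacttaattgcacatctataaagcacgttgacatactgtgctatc
Clec4d: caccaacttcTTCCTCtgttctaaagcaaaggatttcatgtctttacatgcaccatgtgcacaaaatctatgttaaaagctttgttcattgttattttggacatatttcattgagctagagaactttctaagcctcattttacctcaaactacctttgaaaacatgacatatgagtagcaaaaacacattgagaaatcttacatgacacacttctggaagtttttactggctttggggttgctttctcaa
Clec7a: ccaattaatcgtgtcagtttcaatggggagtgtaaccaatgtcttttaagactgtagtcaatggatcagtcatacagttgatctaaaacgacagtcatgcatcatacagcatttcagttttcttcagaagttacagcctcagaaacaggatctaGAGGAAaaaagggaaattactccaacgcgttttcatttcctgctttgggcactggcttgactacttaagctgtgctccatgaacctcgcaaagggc
Clec12a: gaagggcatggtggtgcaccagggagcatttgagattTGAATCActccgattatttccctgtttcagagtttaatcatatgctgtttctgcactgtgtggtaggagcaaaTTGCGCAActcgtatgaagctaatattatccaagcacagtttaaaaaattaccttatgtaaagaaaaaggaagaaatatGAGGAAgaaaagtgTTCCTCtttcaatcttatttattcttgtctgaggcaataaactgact

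The motifs were GAGGAA for PU.1, the factor of myeloid identity, which 23.3% of 26734 RefSeq mouse promoters of the same length held, TTGCNNAA for C/EBP (9.56%), TGANTCA for AP-1 (6.85%), GGNNTTTCC for NF-kB (4.84%), GAAANNGAA for IRF (7.18%) and TTCNNNGAA, the GAS element bound by STAT factors (7.21%). The AP-1 and GAS letters read the same on both strands, and no match in these promoters overlapped another. The Clec4e promoter held a C/EBP match from -66 to -59, counted from the start site, and PU.1 matches from -123 to -118 and from -56 to -51. The Clec4d promoter held 1 PU.1 match, far from the start, from -240 to -235. The Clec7a promoter likewise held 1 PU.1 match, from -96 to -91. Clec12a held the most matches, with AP-1 from -213 to -207, C/EBP from -140 to -133 and PU.1 from -61 to -56 and from -47 to -42. Of the other members, Clec5a had 2 PU.1 matches, Clec4a2 1 GAS match and Clec2d 1 IRF match, and the NF-kB letters were found in 0 of the 7 promoters available. Clec4n was not searched. A match describes letters and is not a measured binding site.

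After co-culture with KO neutrophils, Clec4d and Clec4e stood 1.89-fold and 1.68-fold below their level with WT neutrophils, while Clec7a stood 2.34-fold higher. Clec5a was 1.17-fold lower, a call that most fits without 1 library did not keep, and Clec4n did not pass the test. Clec12a, at low values, was 4.9-fold lower with KO neutrophils. By limma on log2(FPKM + 1), with p-values adjusted by the Benjamini-Hochberg method over all 11395 genes tested and an adjusted p under 0.05 as the call, 4 of the 5 tested members changed, against 43.3% of all genes tested. The count was 3 in 5 of 6 fits that left out a library, where Clec5a lost its call. Without the filter on low values it was 4 of all 8, with Clec12a in place of Clec5a, against 17.9% of 25195 genes. In the direction of lower values with KO neutrophils there were 3 (Clec4d, Clec4e and Clec5a, background 18.8%), and in the other direction 1 (Clec7a, background 24.5%). Of all calls 43.4% were toward lower values, and 54.9% when each library was rescaled to a common sum (TPM scale), and the called members kept their direction on that scale. Of the 5 tested members, Clec7a alone passed a second rule with the study's limits of 2-fold and an unadjusted p of 0.05, applied here to the fitted change of log2(FPKM + 1), which 2.57% of all genes tested passed. That scale makes low genes change less than their ratio of means, and Clec12a, 4.9-fold apart by that ratio, was outside this test. The 3 libraries of a group did not overlap those of the other group in 5 of 5 tested members, as in 55.8% of all genes tested. Clec4n passed the filter through its WT libraries, so these counts over the tested members are a description. The median absolute log2 change was 0.71 over the 5 tested members and 0.17 over all genes tested. This too is a description, since the members were chosen with earlier results of these data known. In such bulk libraries fewer cells of a type and less RNA per cell cannot be told apart.

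**Figure D1:**
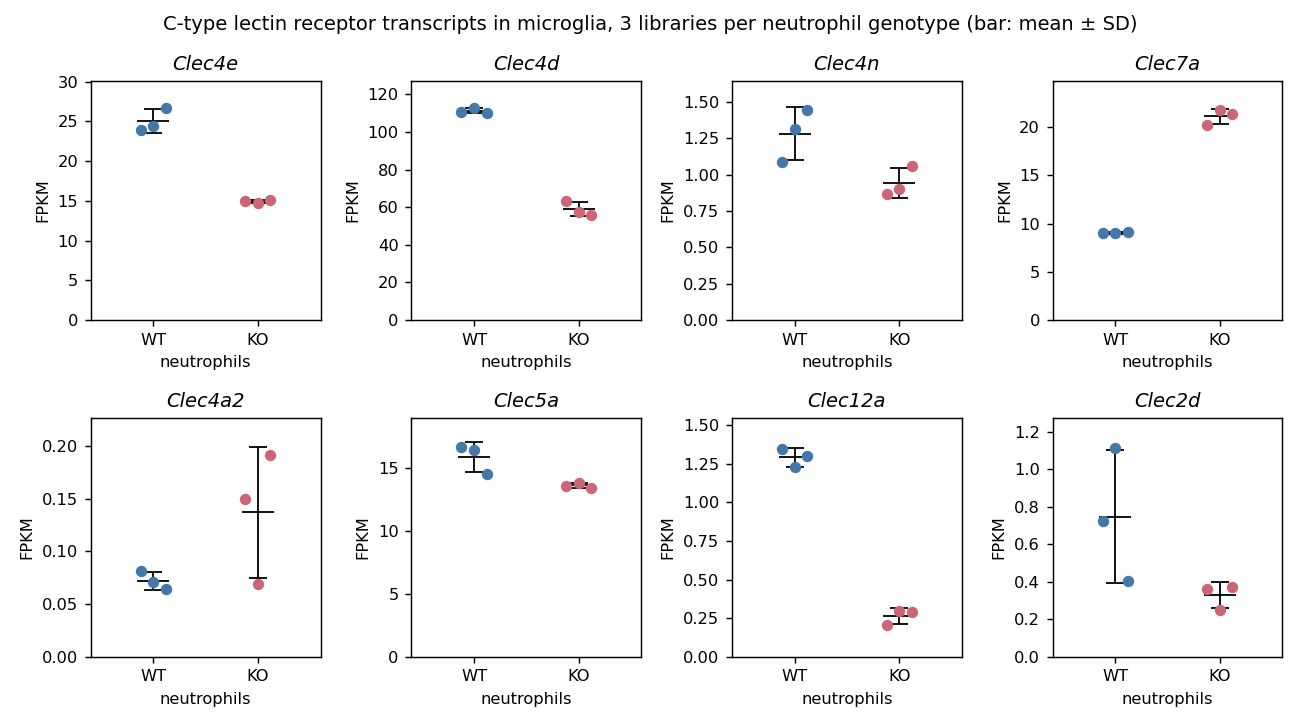
FPKM of the 8 genes in each library of microglia, 3 after co-culture with WT and 3 with KO neutrophils, with the mean and SD as bars and every y axis starting at 0. The Clec4d points sit near 111 with WT and near 58.9 with KO neutrophils, the Clec7a points near 9.03 and 21.1, and for Clec4a2 alone the groups overlap.

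Cell type markers were read beside the receptors. Of 20 neutrophil transcripts, 2 passed the filter, Lcn2 (108.9, 113.1 and 109.4 FPKM with WT and 0.048, 0.314 and 0.237 with KO neutrophils), which stimulated glia also make, and Mmp9. The summed level of the list was 118.4 to 122.4 FPKM with WT and 1.851 to 2.874 with KO neutrophils, and 2.225 to 2.421 against 0.8485 to 1.51 without these 2 genes. Ly6g, S100a9, Retnlg, Ltf, Elane, Mpo, Stfa2l1 and Wfdc21 were listed at 0 in all libraries, and Cd177, the gene missing from the KO neutrophils, was at 0.477, 0.113 and 0.151 FPKM with WT and 0.109, 0.022 and 0.084 with KO neutrophils. All microglia were of genotype WT, so these low values do not check the neutrophil labels. Of 20 macrophage and microglia transcripts, 14 were tested, 3 fell and 7 rose (background 18.8% and 24.5%), with a summed level of 1994 to 2083 FPKM with WT and 1828 to 1912 with KO neutrophils. The lipopolysaccharide co-receptor Cd14 fell (fitted log2 change of -1.79) and so did the macrophage surface protein Adgre1 (-1.34), the lipid receptor Trem2 rose (1.15), and Lyz2 and Ctss were not called by limma (adjusted p = 0.627 and 0.0666). The 6 genes of this list under the filter, named after their values were seen, include defining markers of microglia. C1qa and Sall1 were listed at 0 in all libraries and Siglech in 5 of 6, P2ry12 was at 0.023 to 0.148 FPKM, Aif1 at 0.111 to 0.282 and Tmem119 at 0.204 to 0.793. Transcripts shared with other macrophages, such as Lyz2 (494 and 500 FPKM on average with WT and KO neutrophils) and Ctss (301 and 312), were high, so these markers show macrophage-type cells and leave several microglia markers barely detected. Summed transcripts of astrocytes and oligodendrocytes were 2.922 to 3.335 FPKM with WT and 4.143 to 4.598 with KO neutrophils (8 of 15 listed at 0 in all libraries), most of it from the single gene Cnp, at 2.602 to 2.943 and 3.758 to 4.308 FPKM, and those of lymphoid and dendritic cells 0.6374 to 0.7565 and 0.5952 to 0.764 FPKM (7 of 14 listed at 0). The part of these differences in the receptor values was not tested.

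Clec4d, the partner of Mincle on the cell surface, was the most abundant of the 8 transcripts in both groups. It was at 110.8, 112.6 and 110.3 FPKM with WT neutrophils and at 63.19, 57.52 and 56.04 FPKM with KO neutrophils. Every KO library lay far below every WT library. The means were 111 ± 1.24 and 58.9 ± 3.78 FPKM (SD, n = 3 each), a 1.89-fold higher level with WT neutrophils and a fitted log2 change of -0.91 (SE 0.045, limma adjusted p = 2.1e-05). A larger absolute change was seen in 3.42% of the genes tested. No 31-base stretch of its transcripts occurs in transcripts of another gene of the annotation.

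Clec4e (Mincle), which binds glycolipids of mycobacteria and fungi and a nuclear protein of dead cells, is the next gene on the chromosome. Its libraries read 23.96, 24.47 and 26.75 FPKM with WT and 14.98, 14.72 and 15.07 with KO neutrophils. The KO libraries were nearly equal to one another and lay below all WT libraries. The means of 25.1 ± 1.49 and 14.9 ± 0.182 FPKM (SD, n = 3 each) differed 1.68-fold, with a fitted log2 change of -0.71 (SE 0.046, limma adjusted p = 6.26e-05). In 5.78% of the genes tested the absolute change was larger.

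Clec4n (Dectin-2), the receptor for high-mannose structures of fungi, was near the filter, at 1.087, 1.317 and 1.445 FPKM with WT and 0.868, 0.899 and 1.061 with KO neutrophils. The groups did not overlap, but the highest KO library lay just under the lowest WT library. The fitted log2 change of -0.23 (SE 0.088) missed the threshold in limma (adjusted p = 0.0764), and without the variance trend the adjusted p was 0.0464. With a pseudocount of 0.1 in place of 1 the log2 change was -0.40, and the means differed 1.36-fold. Clec4a2 (DCIR), the inhibitory member of this group of neighbours, was at 0.081, 0.071 and 0.064 FPKM with WT and 0.15, 0.069 and 0.192 with KO neutrophils. All 6 values lay under 0.562 FPKM, the level that 3 fragments would give in its shortest coding transcript, and they correspond to 2.5 to 3.4 fragments a library with WT and 3.2 to 9.2 with KO neutrophils in its longest. No difference was shown at this depth. The gene also shares 10.9% of its 31-base stretches with other genes, most with Clec4a4 (4.96%).

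Clec7a (Dectin-1), the receptor for fungal beta-glucan and a gene known to mark microglia around lesions and plaques, went the other way. It was at 8.984, 8.999 and 9.118 FPKM with WT and at 20.27, 21.75 and 21.36 with KO neutrophils. The WT libraries were nearly equal and all KO libraries stood well above them. The means were 9.03 ± 0.0737 and 21.1 ± 0.769 FPKM (SD, n = 3 each), with a fitted log2 change of 1.14 (SE 0.037, limma adjusted p = 3.71e-06). Only 2.06% of the genes tested changed by more.

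**Figure D2:**
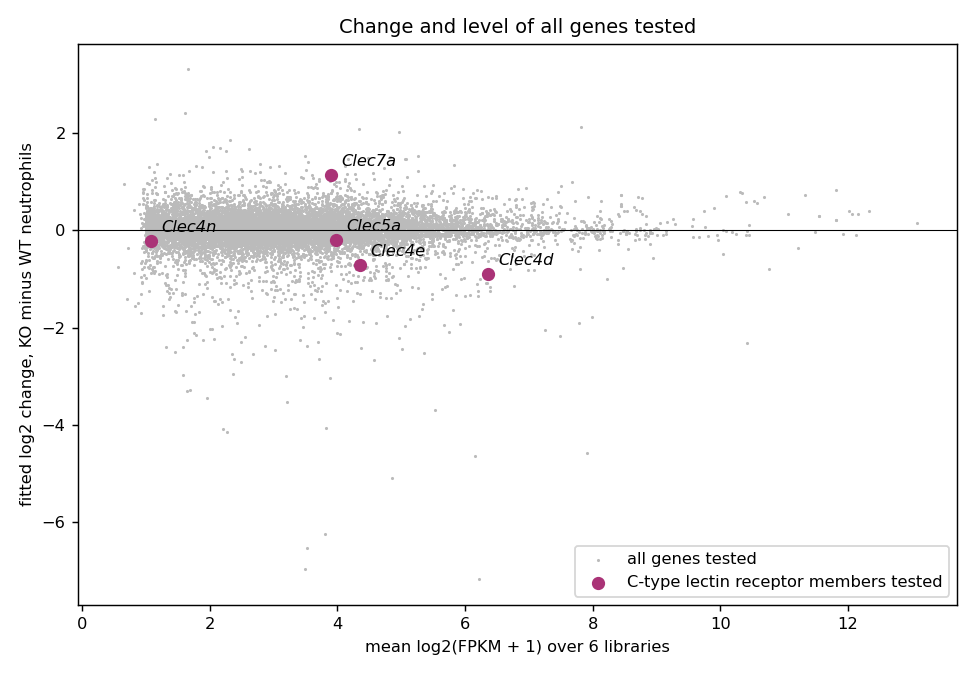
Fitted log2 change (KO minus WT neutrophils, y axis) against the mean log2(FPKM + 1) over the 6 libraries (x axis) for the 11395 genes tested, in grey, with the 5 tested members in colour. Clec4d (-0.91) and Clec4e (-0.71) lie below the bulk of genes of their level, Clec7a (1.14) above it, and Clec5a and Clec4n within it.

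The genes with a pattern over the 6 libraries most like that of Clec7a, by Euclidean distance between log2(FPKM + 1) profiles centred on their own mean, were Efr3b (distance 0.0535), Idi1 (0.101), Rasgrp3 (0.115), Dhx9 (0.118) and Lsp1 (0.127). Pearson's r with Clec7a was 0.9963 to 0.9994 over 6 libraries of 2 groups, so it mostly reflects the gap between the groups. Mean levels went from 0.738 to 2.89 FPKM for Efr3b, from 9.26 to 20.7 for the isoprenoid enzyme gene Idi1, from 24.3 to 57.8 for the Ras activator gene Rasgrp3, from 14.7 to 34.2 for the helicase gene Dhx9 and from 3.37 to 8.82 for Lsp1, a leukocyte actin-binding protein gene, each from WT to KO neutrophils.

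Clec5a (MDL-1), the DAP12-linked receptor known for binding flaviviruses, was at 16.7, 16.46 and 14.53 FPKM with WT and at 13.55, 13.84 and 13.45 with KO neutrophils. The groups did not overlap, and the third WT library lay closer to the KO libraries than to the other WT libraries. The means of 15.9 ± 1.19 and 13.6 ± 0.202 FPKM (SD, n = 3 each) differed 1.17-fold, with a fitted log2 change of -0.21 (SE 0.056, limma adjusted p = 0.0253), and 41.9% of the genes tested changed by more. This call was lost in limma without the filter on low values (adjusted p = 0.0565) and without WT replicate 1 (0.0736), WT replicate 2 (0.0757), KO replicate 1 (0.0673), KO replicate 2 (0.0556) or KO replicate 3 (0.0713). Without WT replicate 3 the adjusted p was 0.00359.

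Clec12a (MICL), the inhibitory receptor for uric acid crystals, was at 1.345, 1.227 and 1.297 FPKM with WT and at 0.203, 0.296 and 0.29 with KO neutrophils. The WT libraries stood together above 1 FPKM and the KO libraries together well below it. The means were 1.29 ± 0.0593 and 0.263 ± 0.0522 FPKM (SD, n = 3 each), 4.9-fold apart. Its mean over the 6 libraries was 0.776 FPKM, so it did not enter the test, and in the limma fit of all 25195 genes listed above 0, of which 17.9% were called, its log2 change was -0.86 (SE 0.061, adjusted p = 0.00052). The values correspond to about 47.8 to 56.9 fragments a library with WT and 8.1 to 14.0 with KO neutrophils in its longest coding transcript, and to 15.6 to 18.6 and 2.6 to 4.6 in its shortest. The first KO library lay under the level of 3 fragments for the shortest, 0.235 FPKM.

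Clec2d (Clr-b) was at 0.723, 1.115 and 0.405 FPKM with WT and at 0.363, 0.247 and 0.374 with KO neutrophils. The WT libraries spread widely, and the lowest of them lay just above the highest KO library. With no filter its log2 change of -0.38 (SE 0.155) did not pass in limma (adjusted p = 0.183). The mean difference of -0.42 FPKM rested most on WT replicate 2, without which it was -0.236 FPKM. The gene shares 11.8% of its 31-base stretches with other genes, most with Clec2i (5.75%). On the FPKM scale an exact two-sided permutation test gave p = 0.1, the smallest possible with 3 libraries against 3, for all members except Clec4a2, where the exact permutation p was 0.3. This test cannot pass 0.05.

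FPKM is a level per length, so the 8 genes can also be ranked within a group. With WT neutrophils the order from high to low was Clec4d, Clec4e, Clec5a, Clec7a, Clec12a, Clec4n, Clec2d and Clec4a2, and the ranges of Clec12a and Clec4n, and of Clec4n and Clec2d, overlapped. With KO neutrophils Clec7a stood second, above Clec4e and Clec5a without overlap, followed by Clec4n, Clec2d, Clec12a and Clec4a2, where the ranges of Clec2d and Clec12a overlapped. The summed FPKM of the 8 genes was 163.6, 166.3 and 163.9 with WT and 113.6, 109.3 and 107.8 with KO neutrophils. The sums thus followed Clec4d, which made up 67.3% to 67.7% of the sum with WT and 52.0% to 55.6% with KO neutrophils. The share of Clec7a was 5.41% to 5.56% with WT and 17.8% to 19.9% with KO neutrophils. Clec4e held 14.6% to 16.3% and 13.2% to 14.0%, and Clec5a 8.87% to 10.2% and 11.9% to 12.7%, in the same order of groups.

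Ratios within a library, which do not depend on how libraries are scaled, were taken for 4 pairs. The ratio of Clec4e to Clec4d, the 2 receptor genes that form one complex with FcR gamma, was 0.216, 0.217 and 0.243 with WT and 0.237, 0.256 and 0.269 with KO neutrophils. The groups overlapped, with a difference of 0.17 in log2 ratio, so a change of one against the other was not shown. The exact permutation p was 0.2 (adjusted over 4 ratios 0.2), and this test cannot pass 0.05 for any of the 4 pairs. The ratio of Clec4n to Clec7a, both receptors for fungi, the first with the FcR gamma adaptor and the second with its own motif, was 0.121, 0.146 and 0.159 with WT and 0.0428, 0.0413 and 0.0497 with KO neutrophils, a log2 difference of -1.67. Here the groups lay well apart. Against their own adaptors, Clec4e to Fcer1g was 0.13, 0.125 and 0.138 with WT and 0.0967, 0.0896 and 0.0996 with KO neutrophils (log2 difference of -0.46). Clec5a to Tyrobp was 0.12, 0.122 and 0.107 with WT and 0.0722, 0.0775 and 0.0649 with KO neutrophils (log2 difference of -0.70). Both receptors were thus lower relative to their adaptors in every KO library than in any WT library. For these last 3 ratios the exact permutation p was 0.1, the smallest possible, and 0.133 after adjustment over the 4 ratios.

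**Figure D3:**
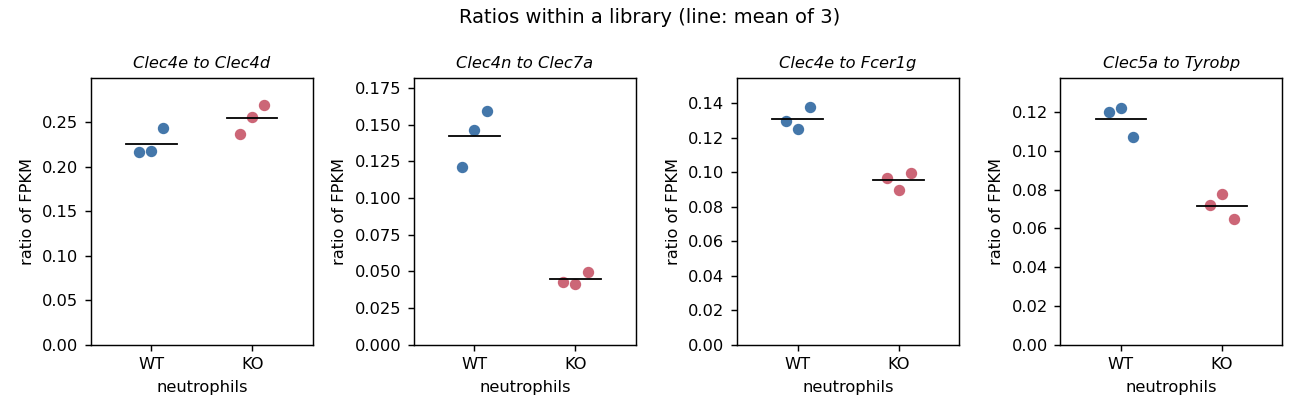
Ratio of FPKM of 2 genes within each library, for 4 pairs, with WT and KO neutrophils on the x axis and a line at the mean of 3 libraries. The groups overlap for Clec4e to Clec4d and stand apart for Clec4n to Clec7a, Clec4e to Fcer1g and Clec5a to Tyrobp, each lower with KO neutrophils.

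The adaptor genes moved in opposite directions. Fcer1g, the partner of Mincle, MCL and Dectin-2, was at 184.4, 195.2 and 193.3 FPKM with WT and 154.9, 164.3 and 151.3 with KO neutrophils, and fell (log2 change of -0.28, limma adjusted p = 0.00152). Tyrobp, the partner of Clec5a and also of Trem2, was at 138.9, 135.1 and 136 FPKM with WT and 187.5, 178.5 and 207.3 with KO neutrophils, and rose (0.48, limma adjusted p = 0.000724). Neither adaptor's groups overlapped. Syk, the kinase shared by the activating receptors, was at 21.11, 21.32 and 21.57 FPKM with WT and 13.47, 14.73 and 13.98 with KO neutrophils, and fell as well (-0.57, limma adjusted p = 8.04e-05). Card9, the adaptor downstream of Syk, was at 18.98, 19.35 and 19.97 FPKM with WT and 19.57, 20.76 and 19.78 with KO neutrophils. Its groups overlapped, and its log2 change was 0.04 (limma adjusted p = 0.389) and -0.01 on the TPM scale. Bcl10, its partner, named here after its values were seen, fell (-0.55, limma adjusted p = 6.62e-05).

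Over a list of 19 genes of the ITAM adaptors and the Syk and CARD9 pathway, 17 were tested, of which 9 fell, 4 rose and 4 did not pass, against 18.8% lower and 24.5% higher among all genes tested. The median log2 change of the 17 was -0.27, and that of all genes tested was 0.02. On the fitted scale the largest changes were those of Lcp2, the scaffold SLP-76, with means of 76.0 ± 1.88 and 33.5 ± 0.635 FPKM (SD, 3 libraries each, a log2 change of -1.16), and of Vav1, a signalling protein phosphorylated by Syk, with 65.8 ± 1.37 and 34.7 ± 1.67 FPKM (-0.91). The kinase gene Src followed with -0.83, although by the ratio of means it differed 2.25-fold and Vav1 1.9-fold, while Vav3, a relative of Vav1, was at 10.2 ± 0.376 and 9.94 ± 0.354 FPKM. The limma adjusted p was 1.1e-06 for Lcp2, 1.07e-05 for Vav1, 0.00618 for Src and 0.578 for Vav3. The 3 phosphatase genes that act at ITIM receptors such as Clec12a and Clec4a2 passed the test, as 43.3% of all genes did, with Ptpn6 (-0.30) and Ptpn11 (-0.19) lower and Inpp5d (0.40) higher with KO neutrophils (limma adjusted p = 0.00161, 0.00335 and 0.000715).

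**Figure D4:**
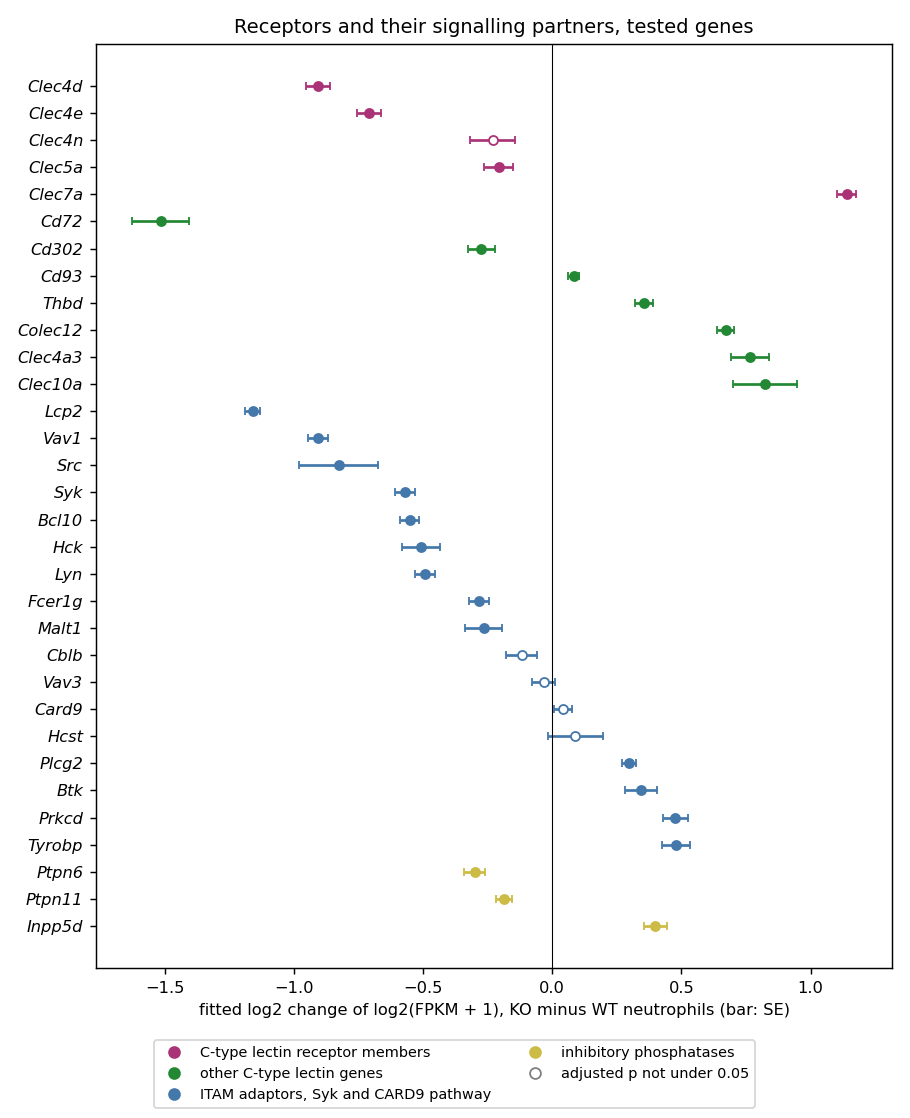
Fitted log2 change of log2(FPKM + 1), KO minus WT neutrophils, with its SE as a bar, for the tested members, other C-type lectin genes, pathway genes and phosphatases, with open circles where the limma adjusted p was not under 0.05. Receptors lie on both sides of 0, as do the partners, from Cd72 at -1.52 to Clec7a at 1.14.

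Among 59 other genes of the C-type lectin family, 30 were listed at 0 in every library and 7 passed the filter. Of these, 2 were called lower and 5 higher with KO neutrophils (background 18.8% and 24.5%), with a median log2 change of 0.36. One of the 5, Cd93, named after its values were seen, differed 1.06-fold (limma adjusted p = 0.0255) and lost its call on the TPM scale, without the variance trend, with a replicate block and without WT replicate 1 or 2 or KO replicate 1 or 2 (highest adjusted p = 0.296). The summed level of all 59 genes was 103.5 to 106.8 FPKM with WT and 118.2 to 119.8 with KO neutrophils, the opposite order to the sum of the 8 receptors. Cd72, an inhibitory co-receptor best known from B cells, was at 6.913, 5.383 and 6.941 FPKM with WT and 1.707, 1.324 and 1.725 with KO neutrophils (log2 change of -1.52, limma adjusted p = 0.000115). Clec4a3, a relative of Clec4a2 also on chromosome 6, was at 1.194, 1.385 and 1.44 FPKM with WT and 3.021, 2.745 and 3.165 with KO neutrophils (0.77, limma adjusted p = 0.00036). Thus 2 genes of the Clec4 family on that chromosome, Clec4d and Clec4e, fell while Clec4a3 rose. Clec10a, a galactose-type lectin of macrophages, passed the filter through its KO libraries and rose, with means of 0.611 ± 0.208 and 1.85 ± 0.297 FPKM (SD, 3 libraries each, a log2 change of 0.82 with a limma adjusted p of 0.00252). Colec12, a scavenger receptor with a collectin domain, rose from 15.7 ± 0.568 to 25.5 ± 0.132 FPKM (0.67, limma adjusted p = 2.13e-05).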

How the data were processed

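RNA was sequenced from sorted mouse microglia after co-culture with Cd177 WT or KO neutrophils, 3 libraries each, grouped by the sample titles. The authors deposited FPKM values per gene and library. The submitters' processing notes name fastp 0.17.1, HISAT2 2.1.0, DESeq2 1.18.1 and R 3.4.3. The program that made the FPKM values, the genome build and the annotation are not given in the sources used here, and the labels and methods name different library kits and sequencers.

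Symbols were found in GENCODE M21 for 99.67% of identifiers. The test was limma 3.58.1 in R 4.3.3 (lmFit, then eBayes with its trend option) on log2(FPKM + 1), KO minus WT, without covariates, for genes averaging 1 FPKM or more. This scale makes changes of low genes look smaller. The folds given beside means are ratios of mean FPKM. Exact permutation tests, ratios and sequence searches were made with Python 3.11.15, scipy 1.17.1 and pandas 2.3.3. Scripts were tested on simulated data. No count test was run, since only 31.6% to 33.8% of low values came out within 0.05 of a whole number of fragments, against 10.0% by chance. Depths and levels of 3 fragments rest on these steps and cover counting error only. Same-numbered libraries did not deviate together (correlations of -0.0751, -0.0524 and -0.00518), so the numbers were not taken as pairs.

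Always named were the 8 members, Fcer1g, Tyrobp, Syk, Card9, Cd177 and Ly6g. Of each other list up to 4 called genes with the largest change and up to 2 uncalled genes with the highest level were named, with the 5 genes most like the tested member with the largest fitted log2 change, and beside these the neutrophil transcripts listed at 0 and the microglia markers under the filter. A further gene that this rule names is not reported here. Members and lists were chosen with earlier results of these data known. Alternatives were another pseudocount, other filters, rescaling to a common sum, quantile normalization, centring on the median, no variance trend, a replicate block and leaving out each library, the last added after seeing the data for members under the filter.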

Additional observations from a re-analysis of the deposited data

How the results depend on the processing

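Of 181 comparisons with an alternative setting, 173 kept direction and side of the threshold, 6 lost the call, 1 gained it, 1 count moved by more than 1.5 times and 0 reversed. These comparisons cover the members, their ratios and the counts of calls. The 6 lost calls were all of Clec5a, and the gained call was that of Clec4n without the variance trend (limma adjusted p = 0.0464). With the filter raised to 5 FPKM, which tests fewer genes, 3 other C-type lectin genes were called. The calls of Clec4d, Clec4e and Clec7a held under every alternative run, with log2 changes of -0.96 to -0.87, -0.76 to -0.66 and 1.09 to 1.22. Over all genes, 3763 to 4931 were called under the other settings and 4081 to 4229 without 1 library, and members called numbered 3 to 4 without 1 library. A replicate block gave 4212 called genes and changed the call of no member. Of the other called genes of the lists, Cd93 (on the TPM scale, without the variance trend, with the replicate block and without 4 of the libraries in turn), Malt1 (with no filter and without WT replicate 1 or KO replicate 2 or 3) and Fcgr3 (with no filter, with the block and without 4 libraries in turn) also lost their calls. Low fragment numbers limit Clec12a, Clec2d, Clec4n and Clec4a2.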
